A study of Mus musculus with 8 samples.

Results

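Id1, Id2, Id3, Id4, the E protein genes Tcf3, Tcf4 and Tcf12, and Atoh8 were followed in Neuro2a cells of the anchorage dependent (AD) and anchorage independent (AI) phenotypes. The family was chosen by the measured difference of Id2 between the phenotypes. Its members, Atoh8 included, were listed by name with earlier results of these data known. Each gene was found by its symbol among the transcript clusters of an Affymetrix mouse gene array, where a cluster is a set of probes for one transcription unit. All 8 genes were measured, each by 1 cluster that carried its symbol alone, out of 19938 genes and 35556 clusters on the array. The gene number of each cluster matched the RefSeq gene of that name, so Tcf3 is the E2A gene and Tcf4 the E2-2 gene, and neither is one of the Wnt pathway factors that once shared these names.

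Neuro2a is an established mouse neuroblastoma line of strain A/J origin, and every array holds RNA of this line. AD cells (4 arrays) had been cultured attached in a serum-containing medium. AI cells (4 arrays), described in the labels as anoikis resistant, had grown as tumorspheres without serum, in a neural stem cell medium that held heparin and the growth factors EGF and bFGF. Attachment and medium change together between the phenotypes and cannot be told apart here. The labels call the replicates biological, and the methods speak of replicate hybridizations, so the p-values below measure only the spread between these arrays, which may be technical. In RNA from whole cultures, fewer cells of a type and less RNA per cell cannot be told apart.

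Helix-loop-helix proteins act in pairs. E proteins have a basic stretch next to the helix-loop-helix domain, with which they bind the E-box, the DNA letters CANNTG, alone or with a tissue-specific partner such as Hand2. Id proteins lack the basic stretch, so an E protein paired with an Id protein cannot bind DNA. Id genes are known as direct targets of BMP signalling through Smad proteins, and Id2 also binds proteins of the Rb family. Atoh8 is a basic helix-loop-helix factor of the atonal group with roles in the development of several tissues.

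The values are log2 signals, so that a difference of 1 is a 2-fold difference, and differences are AD minus AI throughout. Array medians were 5.82 to 5.92 log2 for AD and 5.92 to 5.99 log2 for AI. A gene was called when its adjusted p in limma was under 0.05 and its difference was at least 1.5-fold (0.58 log2). Of all genes, 4.41% were called, 2.02% as higher in AD cells and 2.4% as lower, and the median difference was 0.01 log2. Of all clusters, 3.93% were called, 1.39% as higher and 2.53% as lower in AD cells (495 and 901 clusters, against 731 higher and 647 lower when arrays were centred on their medians). Because the 8 genes were picked with these differences known, the differences are given with standard errors and no p-value. Of 11 sympathoadrenal markers measured, none lay below the median signal on every array, whereas 5 of 6 Schwann cell and glia markers, 6 of 8 fibroblast markers and 5 of 6 leukocyte markers did. Of the sympathoadrenal markers, Dbh (3.01 log2), Phox2a (1.13 log2) and Th (0.60 log2) were called higher in AD cells and none was called lower in limma or in an unmoderated analysis of variance, with 5 higher and 3 lower at an unadjusted p under 0.05. Chgb, at -0.49 log2, and Gata2, at -0.23 log2, were lower at an adjusted p under 0.05 in limma but under 1.5-fold. The list was mixed, with 6 positive and 5 negative differences and a median of 0.06 log2, and its part in the results below was not tested. No marker of the 3 other cell types was called in limma or in an unmoderated analysis of variance, and 1 was higher and 2 lower at an unadjusted p under 0.05. The Schwann cell and glia marker Erbb3, at -0.52 log2, was lower at an adjusted p under 0.05 in limma but under 1.5-fold. It lay above the median signal on every array.

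The differences ran from 4.39 log2 in Id2 to 0.07 log2 in Tcf12. Id1, Id2, Id3 and Atoh8 were called, all higher in AD cells (4 of 8, where 2.02% of all genes were called higher). Id4, Tcf3, Tcf4 and Tcf12 were not called. In 6 of the 8 genes all AD arrays lay above all AI arrays, as they did in 13.6% of all genes. AD and AI arrays did not overlap, in either direction, in 26.9% of all genes and 22.1% of all clusters. Of the called genes Id1 had the smallest difference, 1.19 log2, and of the others Id4 had the largest, 0.47 log2.

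**Figure D1:**
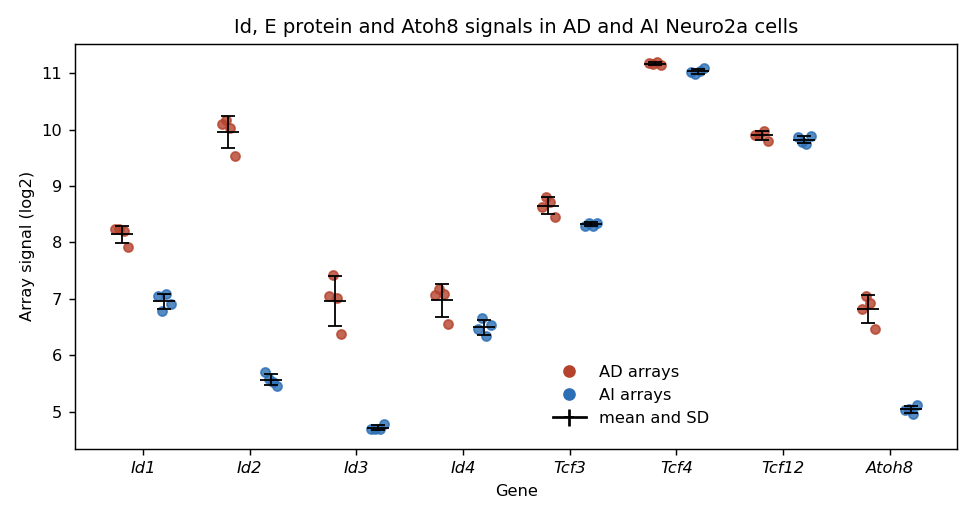
Array signal (log2) of the 8 genes, with AD arrays to the left of AI arrays for each gene; each dot is an array and black bars are means with SD (n = 4 each). Id2 averaged 9.96 log2 on AD arrays against 5.57 log2 on AI arrays, whereas Tcf12 averaged 9.89 log2 on AD arrays against 9.82 log2 on AI arrays.

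Id2 had the largest difference of all 19938 genes. Its signal was 10.09, 10.17, 10.03 and 9.54 log2 in AD replicates 1 to 4, against 5.70, 5.59, 5.53 and 5.46 log2 in AI replicates 1 to 4. The lowest AD array stood 3.84 log2 above the highest AI array. The difference was 4.39 ± 0.13 log2 (standard error), a signal ratio of 20.9. Among the signals of its own array, Id2 stood at the 87.1 to 91.3 percentile in AD cells and at the 38.6 to 45.8 percentile in AI cells. It thus lay above the median of the array in AD cells and below it in AI cells.

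Id3 and Id1, which like Id2 encode dominant inhibitors of E proteins, were also higher in AD cells. Id3 had 7.06, 7.43, 7.01 and 6.37 log2 in AD replicates 1 to 4, against 4.70, 4.69, 4.69 and 4.78 log2 in AI replicates 1 to 4. The AI arrays lay within 0.09 log2 of each other, at the 5.3 to 8.7 percentile of their arrays, and the AD arrays spread over 1.05 log2. The difference in signal was 2.25 ± 0.18 log2, measured against AI signals near the floor of the array. Id1 had 8.23, 8.24, 8.20 and 7.92 log2 in AD replicates 1 to 4, against 7.05, 6.78, 7.08 and 6.91 log2 in AI replicates 1 to 4. Id1 thus kept a signal above the array median in both phenotypes, unlike Id2 and Id3. Its difference was 1.19 ± 0.09 log2, or 2.28-fold, which placed it 37th among all genes ordered toward AD cells.

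In Id4, unlike in the other Id genes, AD and AI arrays overlapped. Id4, which is known for its role in neural precursors, had 7.07, 7.18, 7.09 and 6.55 log2 in AD replicates 1 to 4, against 6.46, 6.66, 6.34 and 6.53 log2 in AI replicates 1 to 4. The overlap came from AD replicate 4 alone, which lay below AI replicate 2. The difference was 0.47 ± 0.13 log2, under the 1.5-fold threshold. Without AD replicate 4 it was 0.61 ± 0.08 log2, and Id4 was then called.

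Atoh8 was also higher in AD cells. Its signal was 6.83, 7.06, 6.93 and 6.47 log2 in AD replicates 1 to 4, against 5.03, 5.05, 4.97 and 5.12 log2 in AI replicates 1 to 4, with no overlap and a difference of 1.78 ± 0.11 log2. In AI cells Atoh8 stood at the 16.2 to 25.0 percentile of its arrays. The AI signals of Id2, Id3 and Atoh8 lay below the median of every array, within or below the range of the leukocyte markers, which had 4.88 to 5.71 log2 on AD arrays against 4.93 to 5.86 log2 on AI arrays. No detection calls were used here, and whether these AI signals exceed background was not tested. The differences of these 3 genes are therefore differences in signal and not exact ratios of transcript.

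The E protein genes, whose products the Id proteins bind, lay well above the median of every array and had the smallest differences of the 8. Tcf3 had 8.63, 8.80, 8.72 and 8.45 log2 in AD replicates 1 to 4, against 8.30, 8.35, 8.30 and 8.35 log2 in AI replicates 1 to 4. Its arrays did not overlap, with a gap of 0.10 log2, and the difference was 0.32 ± 0.08 log2. Tcf4 had 11.18, 11.16, 11.19 and 11.15 log2 in AD replicates 1 to 4, against 11.02, 10.99, 11.03 and 11.09 log2 in AI replicates 1 to 4. The AD arrays of Tcf4 lay above the AI arrays by a narrow margin of 0.06 log2, and the difference was 0.14 ± 0.05 log2. Tcf12, which encodes the E protein HEB, had 9.90, 9.90, 9.98 and 9.80 log2 in AD replicates 1 to 4, against 9.87, 9.78, 9.75 and 9.88 log2 in AI replicates 1 to 4. AD replicate 4 of Tcf12 lay among the AI arrays, and the difference was 0.07 ± 0.06 log2. As folds the differences were 1.25 in Tcf3, 1.1 in Tcf4 and 1.05 in Tcf12. They stayed positive under quantile normalization and under centring of the arrays on their medians.

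Within each array, the mean of the 4 Id genes was also set against the mean of the 3 E protein genes. The resulting log2 ratio leaves out a shift that is equal for all genes of an array, but not one that varies with signal. This log2 ratio was 1.90 higher in AD cells than in AI cells, with an SD between arrays of 0.22 in AD cells and 0.04 in AI cells. Id2, whose difference chose the family, accounts for much of this value. Without Id2 the ratio was 1.13 log2 higher in AD cells, with an SD of 0.22 in AD cells and 0.02 in AI cells. Both ratios include the dim AI signals of Id3, and both are descriptions of the chosen genes.

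**Figure D2:**
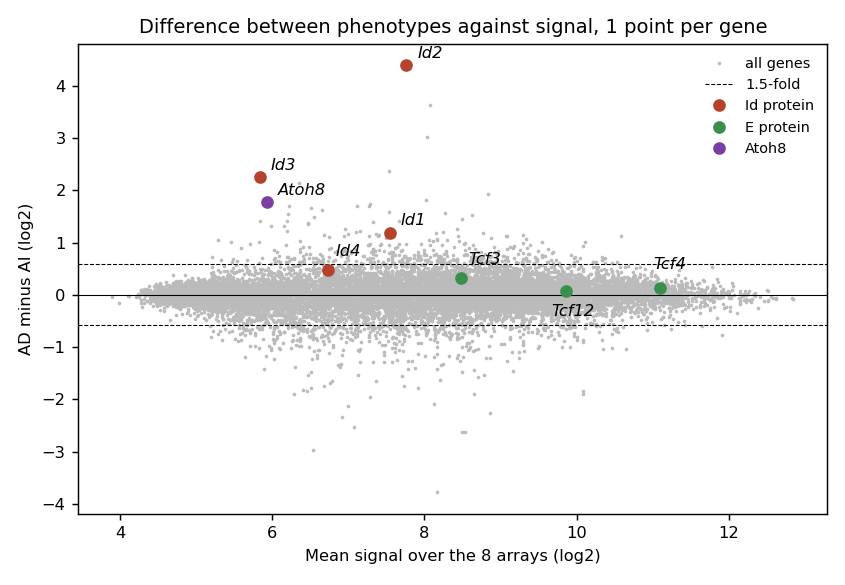
Difference AD minus AI (log2) against the mean signal over the 8 arrays (log2), with 1 grey point per gene and the 8 genes in colour; dashed lines mark 1.5-fold. Id2 lies above all other genes at 4.39 log2, and Id4 and the 3 E protein genes lie inside the dashed lines.

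The promoters of Id2, Id3 and Atoh8, the genes with the largest differences, and of Id4, the relative that was not called, are shown for comparison, because 3 of these genes were high in the same samples. RefSeq windows of build GRCm38.p6 were matched for 6 of the 8 genes, and the 250 bases before the start are given 5′ to 3′ on the strand of the gene. Capitals mark the E-box CANNTG. The windows are chr12:25096093-25096342 on the minus strand for Id2, chr4:136143572-136143821 on the plus strand for Id3, chr13:48260866-48261115 on the plus strand for Id4 and chr6:72235578-72235827 on the minus strand for Atoh8.
Id2: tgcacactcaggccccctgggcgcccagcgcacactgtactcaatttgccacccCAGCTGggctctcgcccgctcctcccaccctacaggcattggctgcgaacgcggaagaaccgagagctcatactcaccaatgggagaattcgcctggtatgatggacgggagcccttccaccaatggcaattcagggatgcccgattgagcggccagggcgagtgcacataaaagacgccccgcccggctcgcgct
Id3: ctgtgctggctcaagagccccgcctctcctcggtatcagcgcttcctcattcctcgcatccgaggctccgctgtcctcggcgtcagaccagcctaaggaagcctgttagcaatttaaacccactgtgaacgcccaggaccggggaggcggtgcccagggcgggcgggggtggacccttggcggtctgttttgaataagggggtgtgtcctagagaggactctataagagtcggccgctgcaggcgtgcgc
Id4: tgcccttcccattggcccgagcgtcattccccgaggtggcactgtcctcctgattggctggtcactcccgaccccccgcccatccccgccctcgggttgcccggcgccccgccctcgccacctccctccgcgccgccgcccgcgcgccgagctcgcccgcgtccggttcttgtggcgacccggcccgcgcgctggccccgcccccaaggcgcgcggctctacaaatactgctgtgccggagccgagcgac
Atoh8: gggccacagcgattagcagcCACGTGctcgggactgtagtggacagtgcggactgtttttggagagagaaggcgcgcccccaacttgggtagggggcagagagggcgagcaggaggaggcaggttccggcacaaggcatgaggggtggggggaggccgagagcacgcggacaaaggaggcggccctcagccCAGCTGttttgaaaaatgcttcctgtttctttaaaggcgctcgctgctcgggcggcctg

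Positions below count back from the base before the start, which is -1, and give the first base of a match. E-boxes were found at -196 in Id2 (CAGCTG) and at -230 (CACGTG) and -59 (CAGCTG) in Atoh8, and none was found in Id3 or Id4. An E-box is present in 66.2% of all 32851 windows of this length, and CACGTG, the form that Myc family proteins bind and one of the letter combinations within CANNTG, in 6.02%. Windows with 2 or more E-boxes, as in Atoh8, make up 31.8%. The letters CCAAT, read on both strands, occurred 3 times in Id2, at -159, -120 and -76, and 2 times in Id4, at -240 and -198, but not in Id3 or Atoh8. Of all windows, 33.8% hold CCAAT, 10.1% hold it 2 times or more and 2.79% hold it 3 times or more. The palindrome GGCGCC, found in 9.59% of windows, occurred in Id2 and Id4. CAGAC, the Smad binding core, read on both strands, occurred 2 times in Id3 only among these 4. It is found in 42.2% of windows, and 2 times or more in 11.7%. GGGCGG, read on both strands and found in 32.7%, occurred in all 4, and TATAAA, read on both strands and found in 12.4%, in none. The 3 called genes shown thus shared no motif of this search that Id4 lacked. Id1, which was also called, had no matched window and could not be compared. Matches are letters in these windows only, and binding was not measured.

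Among the AD arrays, replicate 4 had the lowest signal for each of the 8 genes, whereas AD replicate 2 had the highest for 6 and AD replicate 3 for the other 2. AD replicate 4 differed from the mean of the other AD arrays by -0.79 log2 in Id3, -0.56 in Id4, -0.55 in Id2, -0.47 in Atoh8, -0.31 in Id1, -0.27 in Tcf3, -0.13 in Tcf12 and -0.03 in Tcf4. The Id genes and Atoh8 thus had the largest departures and the E protein genes the smallest. The order was not particular to these genes. AD replicate 4 was the lowest AD array in 31.1% and the highest in 35.7% of all clusters, but the lowest in 80.2% of the clusters called higher in AD cells, where its median departure was -0.30 log2.

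The departure of AD replicate 4 was toward the AI level, but it closed only part of the gap in the called genes. Its signal exceeded the AI mean by 3.97 log2 in Id2, against 4.53 log2 for the mean of the other AD arrays, which is 87.8% of that difference. The same share was 75.8% in Id1, 75.2% in Atoh8 and 67.6% in Id3, but 8.33% in Id4. Among the AI arrays no such order was present: AI replicate 3 was lowest for 4 genes, AI replicate 2 for 2, and AI replicates 1 and 4 for 1 each, and AI replicate 4 was highest for 4. With 4 arrays per phenotype, correlations between genes within a phenotype were not computed.

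**Figure D3:**
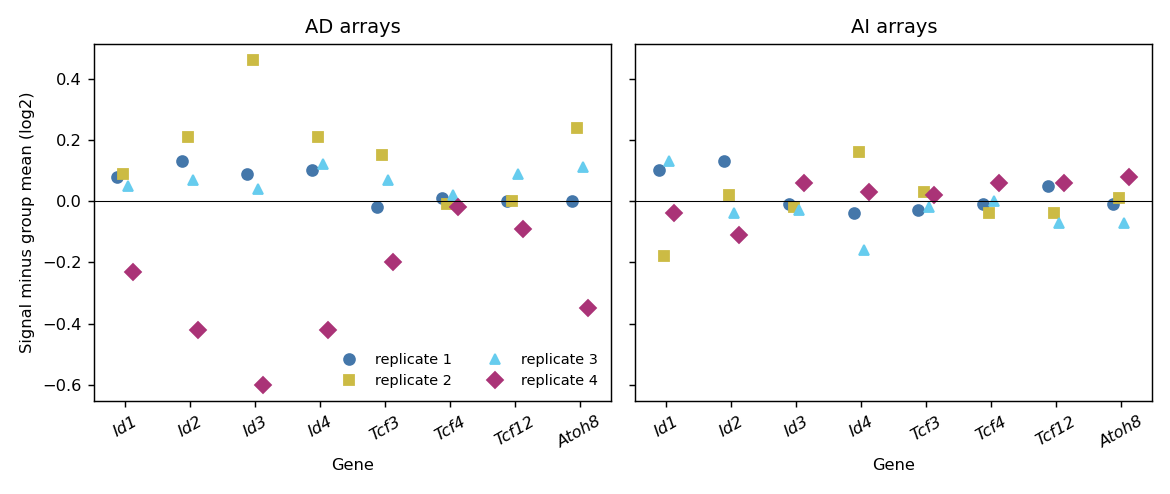
Signal minus the mean of its own phenotype (log2) for the 8 genes in the AD arrays (left) and the AI arrays (right), with 1 symbol per replicate. AD replicate 4 lies lowest for each gene, by up to 0.79 log2 below the mean of the other AD arrays in Id3, and no AI array does so.

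Profiles most like that of Id2 were sought among all genes, by the root mean square difference over the 8 arrays after each gene was centred on its own mean. The nearest was Htr3a, which encodes a channel subunit gated by serotonin, at 0.39 log2. It was followed by Dbh, the enzyme that makes noradrenaline, at 0.69 log2, Necab1, a neuronal calcium-binding protein, at 1.03, Id3 at 1.08 and the imprinted gene Nnat at 1.13. Id3 was thus the 4th nearest profile, Atoh8 the 8th at 1.31 and Id1 the 35th at 1.60. The 5 nearest were the genes with the next largest differences after Id2, at ranks 2 to 6 toward AD cells. Their order thus follows the size of the difference and cannot show a likeness to Id2 beyond it. Htr3a and Dbh also had their lowest AD signal in AD replicate 4, with 9.56 log2 for Htr3a against 9.97 to 10.04 log2 in the other AD arrays.

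For Atoh8 the nearest profile was that of Fst, which encodes follistatin, an extracellular binder of activins and BMPs, at 0.11 log2. Fst had 7.57, 7.60, 7.58 and 7.14 log2 in AD replicates 1 to 4, against 5.83, 5.88, 5.89 and 5.79 log2 in AI replicates 1 to 4. Gpr12, a G protein-coupled receptor gene, followed at 0.13, and then Mycn, the gene for n-myc, Myrip, which links melanosomes and granules to motors, and Astn2, a neuronal membrane protein, each at 0.14 log2. Id3 was the 19th nearest to Atoh8 at 0.27 log2 and Id1 the 29th at 0.32 log2. The 8 arrays span both phenotypes, so that genes with a like difference between AD and AI come out near each other.

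Genes of the BMP and Smad pathway, which acts on Id transcription, included 5 that were higher in AD cells, of 24 measured. None was called lower in limma and 19 were not called; 1 was lower and 9 higher at an unadjusted p under 0.05, and the unmoderated analysis of variance also called 5 and 0. The 5 are 20.8% of the list, where 2.02% of all genes were called higher, and the list median was 0.10 log2. All 5 pathway lists were chosen with earlier results of these data known. Such shares therefore describe the lists and do not test for an excess. The adjusted p-values of list genes given below carry the same limit. Besides Fst, they were 3 Smad genes and a receptor. Smad9, a receptor-activated Smad of the BMP branch, had 8.38, 8.40, 8.32 and 8.20 log2 in AD replicates 1 to 4, against 6.74, 6.76, 6.70 and 6.77 log2 in AI replicates 1 to 4.

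Smad6 and Smad7, inhibitory Smads that BMP and TGFβ signalling induce as feedback, were high in the same arrays. Smad6 had 7.18, 7.33, 7.11 and 7.04 log2 in AD replicates 1 to 4, against 5.70, 5.77, 5.86 and 5.79 log2 in AI replicates 1 to 4. Smad7, which was named after its value was seen, had 7.45, 7.74, 7.68 and 7.51 log2 in AD replicates 1 to 4, against 6.33, 6.30, 6.33 and 6.36 log2 in AI replicates 1 to 4. The arrays of the phenotypes did not overlap in any of these genes. The differences were 1.62 ± 0.10 log2 for Fst (limma adjusted p = 1.69e-05), 1.58 ± 0.06 for Smad9 (limma adjusted p = 6.5e-07), 1.38 ± 0.07 for Smad6 (limma adjusted p = 6.47e-06) and 1.26 ± 0.07 for Smad7 (limma adjusted p = 9.91e-06). In AI cells Fst stood at the 46.7 to 49.3 percentile of its arrays and Smad6 at the 45.9 to 47.7 percentile. The differences of Fst and Smad6 are therefore also differences in signal and not exact ratios of transcript.

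The remaining parts of the pathway differed less. Bmpr1b, a type I BMP receptor also named after its value was seen, had 0.60 ± 0.08 log2 (limma adjusted p = 0.000791) and fell under 1.5-fold without AD replicate 2 (0.54 log2), AI replicate 3 or AI replicate 4 (0.58 log2 each). In AI cells Bmpr1b stood at the 38.4 to 43.9 percentile of its arrays, so its difference is likewise one of signal. Bambi, a pseudoreceptor that dampens the pathway, had 0.46 ± 0.07 log2 and was not called. The BMP-activated Smad1 and Smad5 and the common partner Smad4 had -0.23, -0.01 and 0.09 log2 and were not called. The 6 ligand genes Bmp2, Bmp4, Bmp5, Bmp6, Bmp7 and Gdf2 had differences between -0.06 and 0.05 log2. Of the 24 genes, 9 lay below the median signal on every array, all 6 ligand genes among them. The small differences of the ligand genes were thus measured at dim signals, and whether these exceed background was not tested.

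The tissue-specific partners of E proteins had differences close to that of the whole array. Of 41 measured, 0 were called in either direction in limma, and 4 were higher and 2 lower at an unadjusted p under 0.05. The unmoderated analysis of variance called none either. The list median was 0.05 log2, and 36 of the 41 lay below the median signal on every array. Hand2, the partner known from the sympathetic lineage, averaged 10.11 ± 0.11 log2 on AD arrays against 10.11 ± 0.06 log2 on AI arrays (SD, n = 4 each). Bhlhe22 had no cluster with a single symbol and was not analysed here.

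Of 12 repressors of the Hes, Hey and Bhlhe40 group, which are helix-loop-helix proteins that act mostly without E proteins, 1 was lower in AD cells, where 2.4% of all genes were called lower. None was called higher in limma, with 1 higher and 2 lower at an unadjusted p under 0.05 and 0 called higher in the unmoderated analysis of variance. The gene was Bhlhe41, a repressor of the circadian clock, with 7.42, 7.41, 7.61 and 7.29 log2 in AD replicates 1 to 4, against 8.22, 8.04, 8.16 and 8.08 log2 in AI replicates 1 to 4. Its difference of -0.70 ± 0.08 log2 ran opposite to that of the Id genes (limma adjusted p = 0.000374). Hes1, the best known Notch target, had 0.05 ± 0.06 log2 at a dim signal.

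Proteins that bind Id proteins or set their turnover included 2 genes that were higher in AD cells, of 18 measured (11.1%, where 2.02% of all genes were called higher), and 16 that were not called. This list too was chosen with earlier results known, so its share is a description only. None was called lower in limma, with 5 higher and 2 lower at an unadjusted p under 0.05 and 0 called lower in the unmoderated analysis of variance. Rbl1, the pocket protein p107 and a relative of the Id2 partner Rb, averaged 9.35 ± 0.14 log2 on AD arrays against 8.56 ± 0.15 log2 on AI arrays (SD, n = 4 each; difference 0.79 log2, limma adjusted p = 0.000513). Usp1, a deubiquitinase known in human cells to stabilise ID proteins, averaged 9.66 ± 0.23 log2 on AD arrays against 8.98 ± 0.09 log2 on AI arrays (difference 0.69 log2, limma adjusted p = 0.00263). Rb1 and Rbl2 had differences of -0.05 and 0.12 log2 and were not called. Cdk2, a kinase that phosphorylates Id2, and Cdc20, an activator of the ligase that marks Id proteins for degradation, had 0.56 and 0.53 log2 and were not called; they were named after their values were seen, and both were called after median centring.

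Of 7 measured genes of CDK inhibitors and E-cadherin (Cdh1), which E proteins are known to regulate, 0 were called in limma or in the unmoderated analysis of variance, and 2 were higher and 0 lower at an unadjusted p under 0.05. Cdkn2c, the p18 inhibitor of the CDK4 and CDK6 kinases, had 0.44 ± 0.11 log2, Cdkn1b -0.03 ± 0.06 log2 and Cdh1 0.08 ± 0.06 log2. Cdh1 was dim, at the 25.8 to 30.4 percentile of its arrays in AD cells and the 18.1 to 25.2 percentile in AI cells. It was among 3 of the 7 genes that lay below the median signal on every array. Cdkn1a, the inhibitor most often described as an E protein target, had no cluster with a single symbol and was not analysed here.

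**Figure D4:**
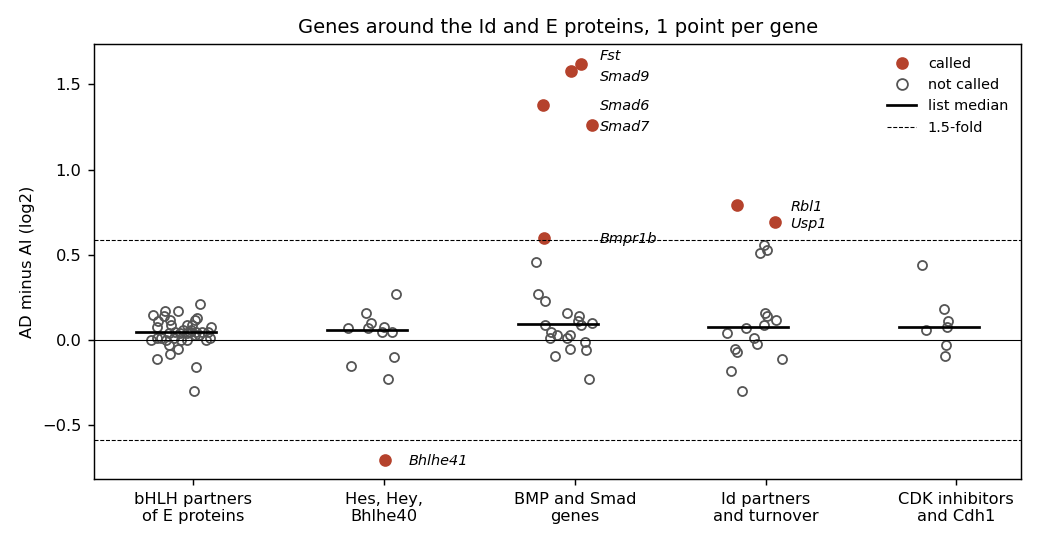
Difference AD minus AI (log2) of the genes in 5 lists around the Id and E proteins, with 1 point per gene, called genes filled and named, list medians as black bars and 1.5-fold as dashed lines. Fst, Smad9, Smad6 and Smad7 lie between 1.26 and 1.62 log2, whereas the 41 partners of E proteins lie around a median of 0.05 log2.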

How the data were processed

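RNA of AD and AI cells was hybridized by the authors to Affymetrix mouse gene arrays, 4 arrays per phenotype. The deposited table holds log2 signals, which the authors obtained by GCRMA background correction and normalization (Partek 6.5, per the submitters' processing notes). The methods name 3 normalizations, of which the table holds 1. A base of 2 follows from a highest value of 13.63, above the natural log of a 16-bit scanner's maximum. The genome build is not given in the sources used here. Arrays give no counts, so the number of arrays limits the precision.

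Clusters were named by the platform annotation. A gene is represented by its brightest cluster over the 8 arrays. AD and AI arrays were compared over all clusters by the moderated linear model of limma (version 3.58.1, R 4.3.3) without covariates, and p-values were adjusted by Benjamini-Hochberg. Other steps were run in Python 3.11.15 (pandas 2.3.3, numpy 2.4.6, matplotlib 3.10.9). The procedure was first tested on simulated data with known differences. The members and the 5 pathway and 4 marker lists were chosen with earlier results of these data known. Besides the members, named genes are up to 3 called genes per list and direction and the 5 nearest profiles of Id2 and Atoh8. Every other gene named, markers and uncalled list genes such as Bambi and Cdkn2c included, was chosen after its values were seen. Alternatives covered scaling between arrays, a filter on dim clusters, variance estimates, array weights, a replicate block, cluster averaging, thresholds and leaving out each array.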

Additional observations from a re-analysis of the deposited data

Results flagged for a closer look

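In groups of 4 arrays, 1 array far from the other 3 was looked for in the 8 genes, in the other genes named by rule and in the mean Id signal over the mean E protein signal. Of 46 groups, 4 held such an array, where chance gives about 1 in 20 for independent groups. These groups share the same arrays, and the nearest profiles were chosen by their likeness over these arrays. The chance rate is therefore only a rough guide here. Id1 had 7.92 log2 in AD replicate 4, against 8.20 to 8.24 log2 in the other AD arrays. Fst had 7.14 log2 in AD replicate 4, against 7.57 to 7.60 log2 in the others. Htr3a, the nearest profile to Id2, had 9.56 log2 in AD replicate 4, against 9.97 to 10.04 log2 in the others. Id3 had 4.78 log2 in AI replicate 4, against 4.69 to 4.70 log2 in the other AI arrays, a departure under 0.10 log2 at a dim signal. What sets AD replicate 4 apart was not tested.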

How the results depend on the processing

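Of 128 differences of the 8 genes under the alternatives, 127 kept their direction and their side of the threshold, the exception being Id4 without AD replicate 4. No direction turned. Over these settings the difference ranged from 4.32 to 4.53 log2 in Id2, 2.10 to 2.45 in Id3, 1.70 to 1.90 in Atoh8, 1.13 to 1.27 in Id1, 0.40 to 0.61 in Id4, 0.27 to 0.40 in Tcf3, 0.12 to 0.21 in Tcf4 and 0.04 to 0.15 in Tcf12. Of the 8 genes, 5 were called without AD replicate 4 and 6 at any fold, and 4 under each other alternative. Leaving Id2 out of the Id mean, an alternative chosen after seeing the data, lowered its difference from the E protein mean to 1.13 log2, against 1.90 log2 with Id2. Of the 18 Id partner and turnover genes, 4 were called after median centring, while leaving out 1 array at a time gave 2 to 4 (4 without AI replicate 1). The clusters called over the whole array numbered 1396, against 254 at a fold of at least 2 and 6444 at any fold. No sign of pairing by replicate number was seen: deviations of same-numbered arrays correlated by -0.112, 0.078, 0.005 and -0.175 over clusters. Arrays with different numbers correlated by -0.178 to 0.254. Whether the cultures were paired is not described and was not tested further. With the replicate number as a block, 1352 clusters and 4 of the 8 genes were called. The small number of arrays and the dim AI signals of Id2, Id3 and Atoh8 limit the precision of the ratios.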
